A study of Homo sapiens with 15 samples.

Results

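The RasV12 line and the AKTmyr line are transformed derivatives of ARPE19, an established human retinal pigment epithelial cell line, and their transcriptomes were compared directly. Their members are 6 RNA-seq libraries, 3 of RasV12 and 3 of AKTmyr, of the 15 libraries (5 lines with 3 libraries each) in the series; they were taken by their column names in the count table, and reads on construct sequences were kept out of the tested genes. RasV12 cells received pWZL-H-RasV12, which encodes an HRAS locked in its active state, and AKTmyr cells received pBabe-myr-HA-Akt, an AKT held at the membrane by a myristoylation signal. By the labels, both were made in T53D4 cells, which are ARPE19 cells given 2 vectors: pbabe-hTERT+p53DD (telomerase and a dominant-negative fragment) and pbabe-cyclinD1+CDK4R24C (cyclin D1 and a CDK4 that p16 does not inhibit), so both carry these 4 genes as well. MekDD cells (the same T53D4 background with pBabe-Puro-MEK-DD, an activated MEK), T53D4 cells and parental ARPE19 cells are given only to place a level. Each construct is represented by 1 line, so the oncogene and the history of the line that carries it cannot be told apart. Each library came from its own thawed vial of that line, so the p-values measure the spread between vials.

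RAS proteins switch on RAF, which phosphorylates MEK, which phosphorylates ERK. ERK then raises transcription of a set of genes that includes its own brakes: the DUSP phosphatases, the Sprouty and SPRED proteins, and the ETV transcription factors that carry the signal further. AKT acts below PI3-kinase; it phosphorylates FOXO transcription factors and keeps them out of the nucleus, relieves the TSC brake on mTORC1, and is known for raising glucose uptake and glycolysis. RAS can also bind and activate PI3-kinase, so the pathways are not separate in cells. In the eye, retinal pigment epithelium is a pigmented polarised layer that supports the photoreceptors, and ARPE19 retains only part of that program in culture.

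Expression is given as CPM, the reads on a gene scaled to a common library total with TMM factors. The RasV12 libraries held 27393974, 41694767 and 22237786 reads on genes, and the AKTmyr libraries 37982880, 46549693 and 24053883. Of 13599 genes with enough reads to test, those with a Benjamini-Hochberg adjusted p under 0.05 by the quasi-likelihood test of edgeR are termed called. On the first principal component, which held 44.6% of the variance over all 15 libraries, RasV12 libraries lay at -57.7, -58.2 and -54.6 and AKTmyr libraries at 46.3, 33.6 and 18.0. AKTmyr replicate 1 was thus the farthest from RasV12, and the AKTmyr libraries were more spread than the RasV12 libraries. The values also fell from replicate 1 to replicate 3 in T53D4 (21.18, 17.91 and 10.55) and in ARPE19 (38.5, 18.98 and 9.09). That order was thus not particular to AKTmyr. MekDD libraries lay at -17.45, -17.6 and -8.511, and neither they nor the RasV12 libraries kept that order. Summed CPM over 19 measured pigment epithelium markers ran from 1186 to 1386 in RasV12 and from 1769 to 2441 in AKTmyr. It ran from 2023 to 2379 in T53D4, within the AKTmyr range, from 1619 to 1868 in MekDD and from 2868 to 2999.6 in ARPE19. Most of that sum came from the keratins KRT8 and KRT18, and RPE65, the isomerase of the visual cycle, averaged 0.0122 CPM in RasV12 and 0.101 CPM in AKTmyr, with no reads in T53D4 or ARPE19.

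The construct rows separated the lines as they are named and also showed a difference that the names do not give. Reads on the HRASV12 sequence came to 331, 325 and 276 CPM in RasV12 libraries, against 10.9, 20.2 and 24.8 CPM in AKTmyr libraries; the AKTmyr values were near the 20.7 ± 6.66 CPM (SD, n = 3) of ARPE19, where reads of the cell's own HRAS fall on the same sequence. The MYR_FLAG_AKT row held 131, 112 and 110.5 CPM in RasV12, near the 104 ± 5.11 CPM of ARPE19, against 543, 774 and 1201 CPM in AKTmyr. Within AKTmyr this row differed by more than 2-fold between vials, and replicate 1 was the lowest. The 4 sequences that both lines should share were all higher in RasV12: the CCND1 row averaged 2350 ± 121 CPM in RasV12 and 858 ± 132 CPM in AKTmyr, CDK4r24c 2380.5 ± 23.3 and 1006 ± 90.1 CPM, TERT 1244 ± 66.4 and 633 ± 175 CPM, and murine p53DD 111 ± 12.4 and 58.4 ± 20.1 CPM. For these 4 rows every RasV12 library exceeded every AKTmyr library. In T53D4 the CCND1 row held 146 ± 32.1 CPM and the CDK4r24c row 92.2 ± 11.8 CPM, close to ARPE19 (193 ± 41.6 and 70.7 ± 12 CPM), and in MekDD they held 270 ± 57.6 and 142 ± 13.7 CPM, so the libraries labelled T53D4 and MekDD did not show the level of these 2 constructs seen in RasV12 and AKTmyr. The values of these 2 rows thus go against the labels' account of T53D4, while its TERT and p53DD rows (879 ± 147 and 70.7 ± 20.1 CPM) stood far above ARPE19; levels given for T53D4 are those of the libraries so labelled. Any gene that differs between RasV12 and AKTmyr is therefore measured in cells that also differ in cyclin D1, CDK4, TERT and p53DD, whose part was not tested.

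**Figure D1:**
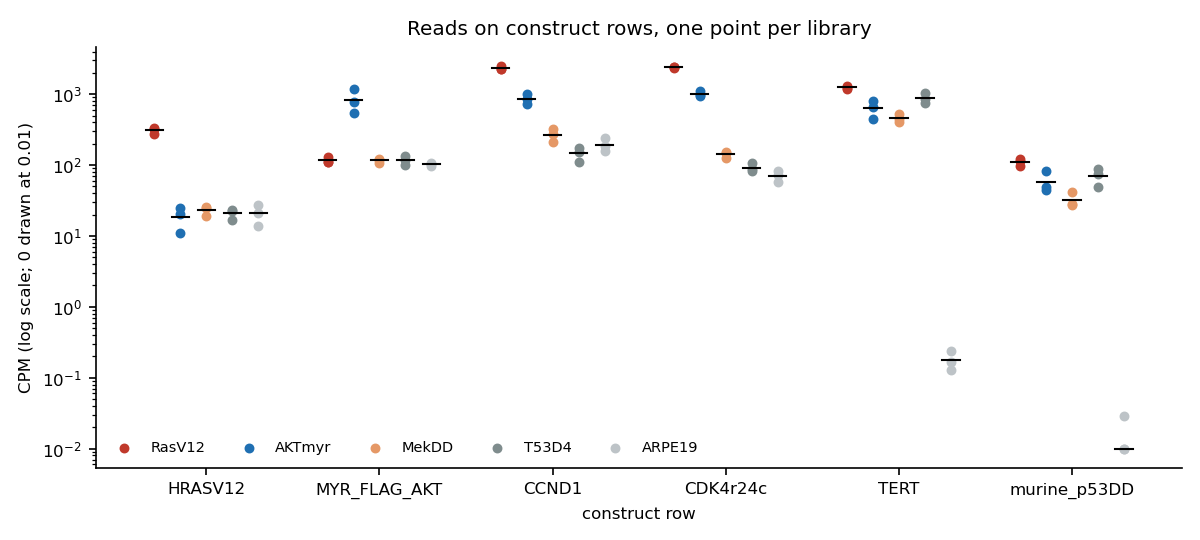
CPM (log axis) on 6 construct rows in each library, by line, with a bar at the mean of 3 libraries. HRASV12 stands out in RasV12 (276 to 331 CPM), MYR_FLAG_AKT in AKTmyr (543 to 1201 CPM), and the CCND1, CDK4r24c, TERT and p53DD rows are higher in RasV12 than in AKTmyr in every library.

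Reads of a construct also land on the cell's own gene. HRAS (chromosome 11, 532242 to 537287, minus strand, in the deposited hg38 annotation) averaged 428 ± 46.6 CPM in RasV12 and 37.5 ± 11 CPM in AKTmyr, AKT1 averaged 236 ± 30 and 939 ± 326 CPM, CCND1 3140.5 ± 191 and 1073 ± 122 CPM, and CDK4 1696 ± 41.9 and 757 ± 43.5 CPM. These values mix the endogenous gene with the construct and say nothing of the endogenous gene alone. MAP2K1, which encodes MEK1, averaged 129.9 ± 24.1 CPM in RasV12 and 109 ± 21.6 CPM in AKTmyr and was not called (edgeR adjusted p = 0.38).

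Across the transcriptome, 2669 genes (19.6% of those tested) were higher in RasV12 and 2821 (20.7%) were lower, so 40.4% of tested genes were called. Counts of list members called between these lines are to be set beside these shares. Changes of at least 2-fold were unevenly split: 862 genes (6.34%) were higher by that much and 1525 (11.2%) were lower. The median log2 fold change of all tested genes was 0.01. Several genes named here overlap a neighbour, among them COL4A1 (COL4A2), PIK3R3 (AL358075.4), EGLN3 (SPTSSA), CRB2 (DENND1A), WNT2B (ST7L), SFRP4 (EPDR1), TGM2 (RPRD1B), MAFF (PLA2G6), FGF7 (FAM227B), ITGB4 (GALK1) and TFPI2 (GNGT1), and since the sources used here do not say whether counting used strand, their values are uncertain. All 3 RasV12 libraries lay above all 3 AKTmyr libraries for 24.1% of tested genes and below them for 24.3%.

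**Figure D2:**
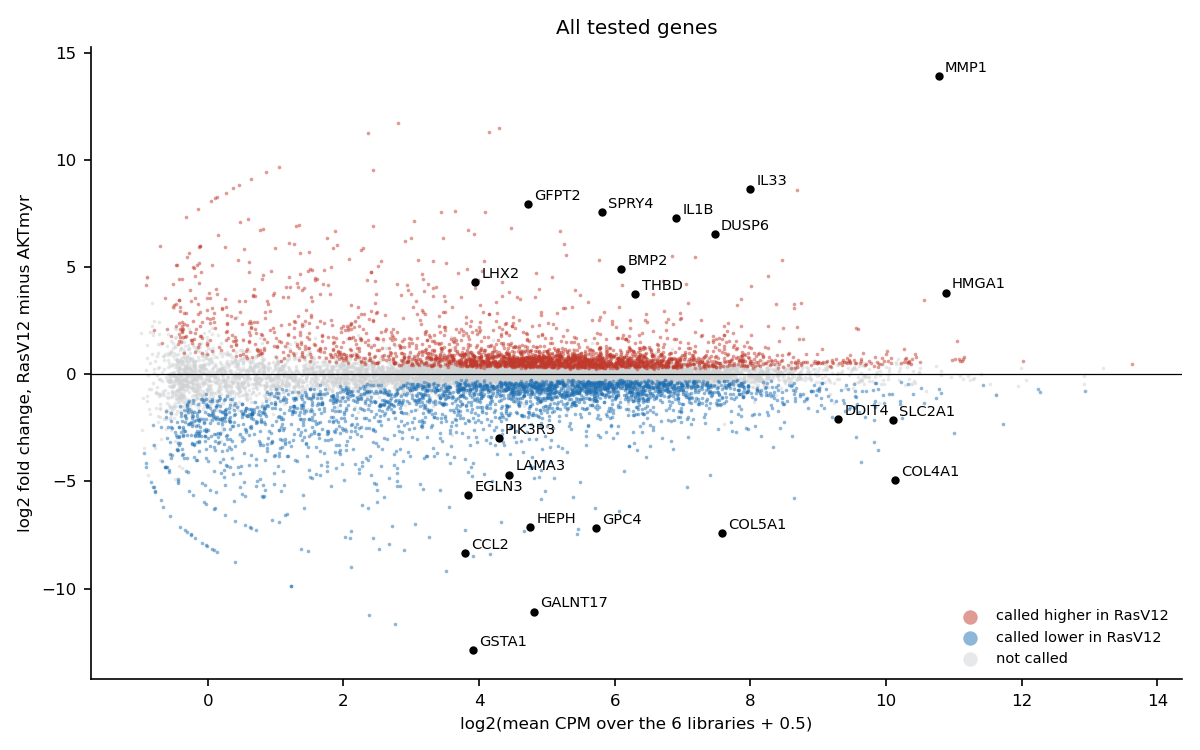
Log2 fold change (RasV12 minus AKTmyr) of each of 13599 tested genes against log2 of its mean CPM over the 6 libraries plus 0.5, with called genes in colour. MMP1 (13.93) lies at the top and GSTA1 (-12.88) at the bottom, and more genes lie far below 0 than far above it.

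The gene with the largest rise was MMP1, interstitial collagenase (chromosome 11, 102789919 to 102798160, minus strand). It had 2155, 3249 and 5088 CPM in RasV12 libraries, against 0.027, 0.242 and 0.458 CPM in AKTmyr libraries. The log2 fold change was 13.93 (SE 0.88, edgeR adjusted p = 1.66e-07), 13.36 without AKTmyr replicate 1 and 14.54 without AKTmyr replicate 3. MekDD cells stood between RasV12 and AKTmyr at 87.9 ± 64.3 CPM, and T53D4 cells held 0.342 ± 0.167 CPM. Its neighbour MMP3, stromelysin, had 31.0, 814 and 1624 CPM in RasV12 and 0.243, 1.23 and 5.42 CPM in AKTmyr; the groups did not overlap, but RasV12 replicate 1 was far below the other RasV12 libraries.

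Other genes near the top were almost silent in AKTmyr. G0S2, an inhibitor of the lipase ATGL, had 13.5, 10.1 and 15.2 CPM in RasV12 and no read in AKTmyr, at least 438-fold higher against a floor of 3 reads over the AKTmyr libraries. LCE1F, a late cornified envelope gene, had 9.49, 4.99 and 13.5 CPM and no read, at least 297-fold higher. ESM1, endocan, had 83.8, 7.16 and 23.1 CPM in RasV12 against 1 read in all AKTmyr libraries, and BCL2A1, an anti-apoptotic BCL2 relative, 9.82, 3.22 and 16.3 CPM against 1 read. The ratio of CPM was 3602 for ESM1 (95% exact interval 646 to 142309, counting error only) and 888 for BCL2A1 (159 to 35119). GFPT2, which feeds the hexosamine pathway, averaged 51.5 ± 6.68 CPM in RasV12 and 0.204 ± 0.0572 CPM in AKTmyr (log2 fold change 7.93, SE 0.46), and TMEM156 20.7 ± 3.36 and 0.112 ± 0.0475 CPM. IL33, an alarmin of the interleukin-1 family, had 339, 235 and 955 CPM in RasV12 and 1.22, 1.61 and 0.959 CPM in AKTmyr. PI3, the elastase inhibitor elafin, and TNFSF15 rested on RasV12 replicate 3: PI3 had 0.256, 3.17 and 99.5 CPM in RasV12 (log2 fold change 7.03 without that library, against 11.32 with it and 13.14 without AKTmyr replicate 3) and TNFSF15 5.62, 6.78 and 59.5 CPM (5.67 without it, against 7.59 with it and 8.32 without AKTmyr replicate 1).

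At the other end, several genes were silent in RasV12. GSTA1, a glutathione transferase, had no read in RasV12 and 74.2, 10.0 and 2.92 CPM in AKTmyr, at least 941-fold lower in RasV12. CLEC19A had no read in RasV12 and 26.5, 7 and 4.04 CPM in AKTmyr, at least 402-fold lower. ITM2A had no read in RasV12 and 15.4, 6.65 and 6.04 CPM in AKTmyr, at least 293-fold lower. The highest AKTmyr library was replicate 1 for all 3 of these genes. Replicate 1 was also the highest T53D4 library and the highest ARPE19 library for GSTA1 and ITM2A, but not for CLEC19A. The fold bounds of these 3 genes pool the reads of each line, so they are not bounds for each AKTmyr library. ITM2A stood at 9.13 ± 2.07 CPM in T53D4, a level near that of AKTmyr, whereas GSTA1 (0.47 ± 0.601 CPM) and CLEC19A (0.283 ± 0.217 CPM) were low in T53D4. GALNT17, a glycosyltransferase of the GalNAc family, had 2 reads in all RasV12 libraries and 82.5, 58.6 and 24 CPM in AKTmyr. The vasoconstrictor EDN2 averaged 0.112 ± 0.0665 CPM in RasV12 and 34.7 ± 30.2 CPM in AKTmyr, the neurofilament NEFH 0.0308 ± 0.0267 and 10.4 ± 4.26 CPM, and the teneurin TENM2 0.078 ± 0.0105 and 28.9 ± 29.3 CPM. ITIH5 and ST6GAL2, with 3 reads and 1 read in RasV12, averaged 21.9 ± 12.4 and 7.61 ± 3.16 CPM in AKTmyr, and SHISA9 and SEMA5B averaged 0.0444 ± 0.0576 and 0.0544 ± 0.0478 CPM in RasV12 and 13.9 ± 2.74 and 11.7 ± 14.2 CPM in AKTmyr.

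Genes with the smallest adjusted p and at least 20 CPM in the higher line give the steadiest differences. DUSP6, the phosphatase that dephosphorylates ERK (chromosome 12, 89347235 to 89352501, minus strand), had 347, 302 and 403 CPM in RasV12 and 4, 3.15 and 4.33 CPM in AKTmyr (log2 fold change 6.53, SE 0.23, edgeR adjusted p = 1.52e-09). BMP2, a secreted BMP ligand, averaged 131 ± 23.2 CPM in RasV12 and 4.3 ± 0.517 CPM in AKTmyr. The WNT receptor FZD8 averaged 54.4 ± 8.47 and 2.06 ± 0.157 CPM, the kinase MAST4 82.7 ± 2.47 and 6.42 ± 0.776 CPM, and the syntaxin STX1A, which overlaps BUD23, 37.5 ± 4.32 and 1.91 ± 0.62 CPM. Among genes that fell, AUTS2 averaged 6.3 ± 0.529 CPM in RasV12 and 64.6 ± 7.81 CPM in AKTmyr, and the transcription factor KLF13 6.24 ± 1.63 and 49.8 ± 1.38 CPM. Neurexin NRXN3 averaged 3.35 ± 0.412 and 31.6 ± 7.42 CPM, tubulin TUBB2A 7.45 ± 1.39 and 54.6 ± 8.12 CPM, and FAM107B 26.1 ± 2.72 and 139 ± 29.2 CPM. PPP1R3C, which targets a phosphatase to glycogen, averaged 34.3 ± 3.76 CPM in RasV12 and 143 ± 26.6 CPM in AKTmyr.

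Genes that ERK turns on moved together. Of 30 tested members of the ERK output list, 23 (76.7%) were higher in RasV12 and 1 was lower, with a median log2 fold change of 2.45, against 0.01 over all tested genes. Without CCND1, whose reads mix with a construct, 22 of 29 were higher and 1 was lower. The list was drawn up with earlier results on the RasV12 line in view.

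Among the feedback inhibitors, SPRY4 had 148, 100.3 and 83.3 CPM in RasV12 and 0.54, 0.771 and 0.333 CPM in AKTmyr (log2 fold change 7.58, SE 0.45). SPRY2 had 139, 107 and 111 CPM in RasV12 and 14.1, 12.1 and 14.3 CPM in AKTmyr (3.14, SE 0.15). Neither gene showed any overlap between the lines. The phosphatases DUSP4 and DUSP5 averaged 250 and 198 CPM in RasV12 and 13.7 and 9.63 CPM in AKTmyr, with log2 fold changes of 4.20 (SE 0.32) and 4.37 (SE 0.32), and the ERK pathway inhibitors SPRED1, SPRED2 and SPRED3 rose by 1.33, 1.69 and 2.50 on the log2 scale. These 5 were chosen after their values were seen, to complete the families of the inhibitors named by rule.

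Transcription factors of the list also rose. ETV4 had 25.3, 26.9 and 19.5 CPM in RasV12 and 0.378, 0.837 and 1.58 CPM in AKTmyr (log2 fold change 4.73, SE 0.44), and ETV5 averaged 73.3 ± 14.5 and 8.43 ± 3.2 CPM (3.13, SE 0.30); ETV4 overlaps DHX8 and ETV5 overlaps DGKG. FOSL1, the FRA1 subunit of AP-1, averaged 230.2 ± 69.2 and 58.3 ± 5.06 CPM (1.98, SE 0.24). EGR1, an immediate early factor, had 79.9, 21.9 and 54.8 CPM in RasV12 and 14.8, 3.35 and 2.46 CPM in AKTmyr (2.92, SE 0.78). Its log2 fold change was 2.48 without RasV12 replicate 1 and 4.14 without AKTmyr replicate 1. HMGA2, an architectural chromatin protein, averaged 129 ± 14.3 and 7.26 ± 2.37 CPM (4.16, SE 0.32). FOSL2 was the only member of the list called lower, at 184 CPM in RasV12 and 332 CPM in AKTmyr (log2 fold change -0.85, SE 0.18). DUSP7, SPRY1, EPHA4, FOS, IER3 and EMP1 were not called, FOS among them with 6.76 CPM in RasV12 and 1.24 CPM in AKTmyr and an edgeR adjusted p of 0.0585. FOSL2 and these 6 were named after their values were seen.

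The lines stood on opposite sides of T53D4 for much of this list. Against T53D4, 19 members were higher in RasV12 and 1 was lower (background 10.8% higher and 13.6% lower), while 2 were higher in AKTmyr and 16 were lower (background 9.91% and 10.2%). These comparisons share the T53D4 libraries. SPRY4 stood at 2.81 ± 1.39 CPM in T53D4, where AKTmyr held 0.548 ± 0.219 CPM, and ETV5 at 31.2 ± 4 CPM, where AKTmyr held 8.43 ± 3.2 CPM. MekDD cells, in which MEK is activated directly, had 84.6 ± 12.5 CPM of DUSP6, 31.0 ± 5.79 CPM of SPRY4 and 71.6 ± 8.76 CPM of SPRY2. Every MekDD library lay between the RasV12 and the AKTmyr libraries for these 3 genes.

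**Figure D3:**
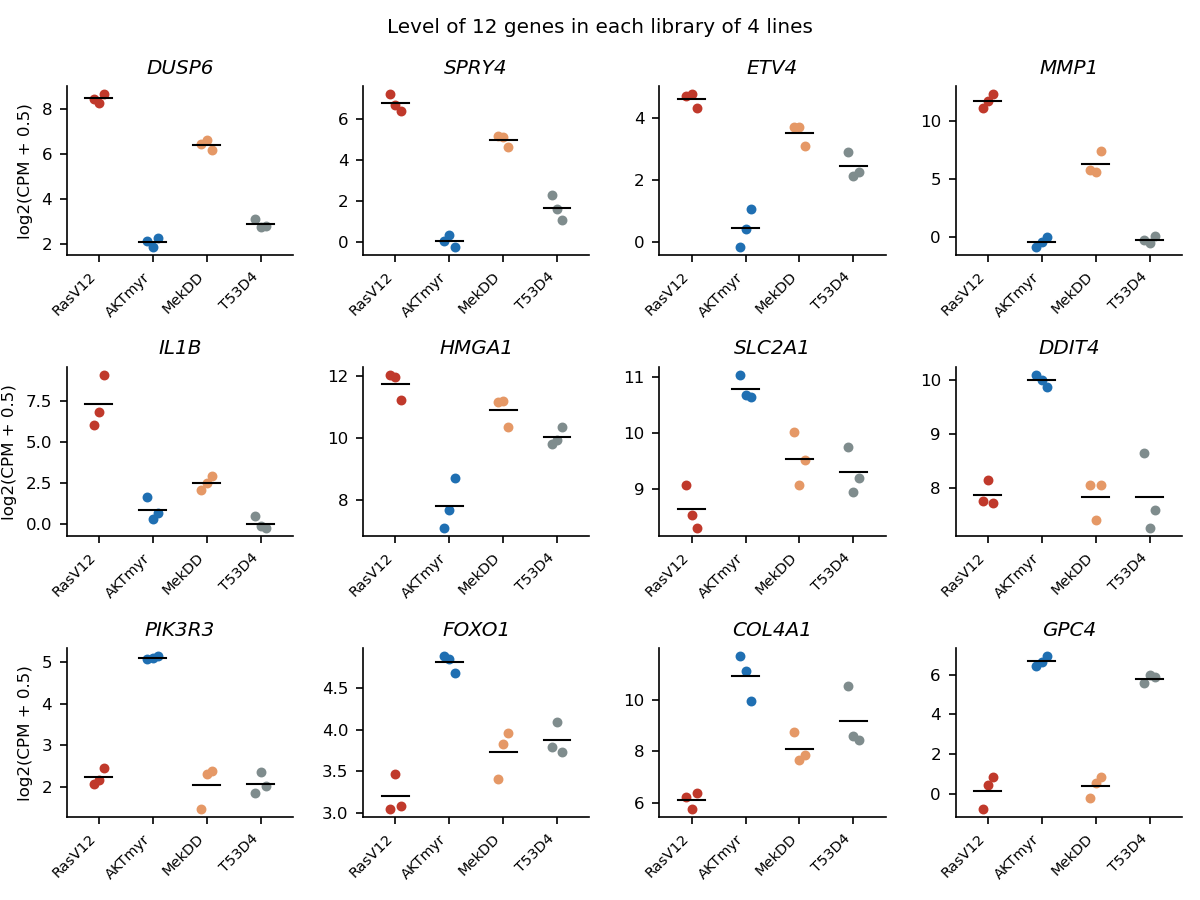
Level of 12 genes, as log2 of CPM plus 0.5, in each library of RasV12, AKTmyr, MekDD and T53D4, with a bar at the mean of 3 libraries. DUSP6, SPRY4, ETV4, MMP1, IL1B and HMGA1 are highest on average in RasV12 with MekDD next; SLC2A1, DDIT4, PIK3R3, FOXO1, COL4A1 and GPC4 are highest on average in AKTmyr.

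The components of the cascade split. Of 33 tested components from RAS to ERK, 6 were higher, HRAS with its construct reads among them, and 8 were lower, and the median log2 fold change was -0.08. RASA3, a GTPase-activating protein that switches RAS and RAP proteins off, averaged 51.6 ± 7.86 CPM in RasV12 and 7.48 ± 1.49 CPM in AKTmyr (log2 fold change 2.78, SE 0.20). The exchange factor RASGRP3 averaged 2.02 ± 1.38 and 21.0 ± 6.13 CPM (-3.33, SE 0.48), and the RAS-binding protein RASSF2 1.10 ± 0.655 and 26.4 ± 11 CPM (-4.58, SE 0.56). RASGRP3 stood at -3.06 without RasV12 replicate 1 and -4.10 without RasV12 replicate 2. AKTmyr was thus the line with more RASGRP3 and RASSF2 and with less RASA3.

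Among EGF family genes, 4 of 13 tested were higher and 5 were lower. The ligand AREG had 2.77, 2.48 and 5.04 CPM in RasV12 and 0.108, 0.242 and 0.0417 CPM in AKTmyr, and the neuregulin NRG2 averaged 17.8 ± 1.22 and 1.10 ± 0.235 CPM. ERRFI1, an inhibitor of EGF receptors, averaged 218 ± 68.7 CPM in RasV12 and 29.9 ± 2.49 CPM in AKTmyr (log2 fold change 2.86, SE 0.27). The receptors EGFR and ERBB4 were lower in RasV12: EGFR averaged 203 ± 13.6 and 398 ± 69.5 CPM (-0.97, SE 0.20), and ERBB4 0.782 ± 0.181 and 4.62 ± 0.862 CPM. ERBB3 averaged 0.267 ± 0.118 CPM in RasV12 and 0.442 ± 0.137 CPM in AKTmyr and was not called. Among 30 other receptor tyrosine kinases and their ligands, 6 were higher and 9 were lower; ROR1 averaged 3.98 ± 1.52 and 35.7 ± 7.44 CPM, ROR2 3.30 ± 1.02 and 21.0 ± 7.95 CPM, and PDGFRB 28.9 ± 6.32 and 159 ± 77.1 CPM. FGF18 averaged 0.16 ± 0.158 CPM in RasV12 and 5.89 ± 2.92 CPM in AKTmyr, whereas FGF7 had 0.913, 0.756 and 8.96 CPM in RasV12 and 0, 0.0881 and 0.0417 CPM in AKTmyr (log2 fold change 6.11, 4.06 without RasV12 replicate 3 and 7.40 without AKTmyr replicate 2).

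Few PI3-kinase pathway components were called higher. Of 34 tested, 2 (5.88%, against 19.6% of all genes) were higher and 7 (20.6%, against 20.7%) were lower, with a median of -0.11. AKT1, with its construct reads, was among those lower. The largest difference was in PIK3R3, a regulatory subunit of PI3-kinase (chromosome 1, 46040140 to 46133036, minus strand): 3.72, 4.02 and 5 CPM in RasV12, against 32.9, 33.7 and 34.8 CPM in AKTmyr (log2 fold change -3.00, SE 0.27, edgeR adjusted p = 2.94e-06). T53D4 (3.78 ± 0.796 CPM) and MekDD (3.84 ± 1.37 CPM) were at the RasV12 level, so AKTmyr was the line that stood apart. DDIT4, an mTORC1 inhibitor induced by stress, had 216, 285 and 211 CPM in RasV12 and 1094, 1026 and 939 CPM in AKTmyr (-2.10, SE 0.30), with 248.8 ± 133 CPM in T53D4. PIK3IP1, which inhibits the catalytic subunit, averaged 4.01 ± 1.79 and 17.7 ± 11.1 CPM, a call that was lost without AKTmyr replicate 1. Of the insulin receptor substrates, IRS2 averaged 259 ± 27.3 CPM in RasV12 and 141 ± 20.8 CPM in AKTmyr (0.88, SE 0.23), and IRS1 150.1 ± 25.7 and 110.2 ± 24.1 CPM, which was not called.

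Insulin-like growth factor genes went both ways, with 5 of 19 tested higher and 6 lower. The protease PAPPA, which frees IGF by cutting its binding proteins, averaged 13.8 ± 3.97 CPM in RasV12 and 0.186 ± 0.0464 CPM in AKTmyr (log2 fold change 6.22, SE 0.41), with 0.233 ± 0.0615 CPM in T53D4. The binding protein IGFBP3 had 178, 130.1 and 136 CPM in RasV12 and 3294, 1175 and 719 CPM in AKTmyr (-3.55, SE 0.85, and -2.69 without AKTmyr replicate 1). The insulin receptor INSR averaged 16.9 ± 2.63 CPM in RasV12 and 25.2 ± 2.22 CPM in AKTmyr (-0.58, SE 0.18), a call lost without RasV12 replicate 1, RasV12 replicate 2 or AKTmyr replicate 2. IGF1 itself had 3 reads in all RasV12 libraries and 4.59, 3.17 and 13.6 CPM in AKTmyr.

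FOXO genes and their targets were more often lower in RasV12 than in AKTmyr. Active AKT is known to hold FOXO proteins out of the nucleus. Of 35 tested members of the FOXO list, 2 were higher in RasV12 and 15 (42.9%) were lower, with a median of -0.58. Against T53D4, 4 were higher in RasV12 and 11 were lower (median -0.38, background 10.8% higher and 13.6% lower). In AKTmyr, 5 were higher than in T53D4 and 3 were lower (median 0.06, background 9.91% and 10.2%). FOXO1 itself had 7.74, 10.6 and 8.01 CPM in RasV12 and 29.2, 28.5 and 25.3 CPM in AKTmyr (log2 fold change -1.65, SE 0.19, edgeR adjusted p = 2.68e-05), with 14.3 ± 2.08 CPM in T53D4. FOXO6 averaged 0.678 ± 0.258 and 4.55 ± 3.12 CPM, and TXNIP, which curbs glucose uptake, had 84.1, 17.8 and 26.3 CPM in RasV12 and 299.7, 144 and 125 CPM in AKTmyr. The TXNIP call was lost without RasV12 replicate 2, RasV12 replicate 3 or AKTmyr replicate 1. CDKN1B, the cell cycle inhibitor p27, averaged 91.9 ± 11.9 and 128 ± 26.4 CPM (-0.48, SE 0.17), and its call was lost without RasV12 replicate 1, RasV12 replicate 2 or AKTmyr replicate 1. KLF2 went the other way, at 29.2 ± 3.50 CPM in RasV12 and 6.82 ± 2.82 CPM in AKTmyr. Protein location was not measured, so these values are of FOXO target transcripts only.

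Glucose metabolism separated the lines. Of 26 tested genes of glycolysis, 1 was higher in RasV12 and 15 (57.7%) were lower, with a median log2 fold change of -0.88. SLC2A1, the glucose transporter GLUT1 (chromosome 1, 42925375 to 42958868, minus strand), had 538, 370.1 and 313 CPM in RasV12 and 2116, 1636 and 1601 CPM in AKTmyr (-2.13, SE 0.29, edgeR adjusted p = 7.77e-05). PFKFB3, which makes the activator of phosphofructokinase, had 62.8, 41.7 and 48.0 CPM in RasV12 and 178, 175 and 293 CPM in AKTmyr (-2.08, SE 0.40). No RasV12 library reached an AKTmyr library for either gene. ALDOC, an aldolase, averaged 30 ± 16.2 and 153 ± 81.1 CPM, and PDK3, which inhibits pyruvate dehydrogenase, 14.1 ± 4.92 and 44.2 ± 10.7 CPM. Hexokinase HK2 had 107, 77.0 and 64.3 CPM in RasV12 and 115, 139 and 201 CPM in AKTmyr (-0.87, SE 0.32), a call lost without RasV12 replicate 2 or 3 or AKTmyr replicate 2 or 3. HK1 was the 1 member higher in RasV12, at 507 CPM against 325 CPM in AKTmyr (0.64, SE 0.22); it was named after its values were seen. Against T53D4, 10 members were higher in AKTmyr and none was lower, or 19 and none with the vial number as a block. Over all tested genes, 1347 were higher in AKTmyr and 1391 were lower, or 2304 and 2434 with the block. In RasV12 against T53D4, 1 glycolysis gene was higher and 2 were lower, or 2 and 5 with the block. Over all tested genes, 1466 were higher in RasV12 and 1847 were lower, or 2259 and 2607 with the block.

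Hypoxia response genes followed the same direction, with 2 of 24 tested higher, 11 (45.8%) lower and a median of -1.12; without AKTmyr replicate 1, 7 were lower. The prolyl hydroxylase EGLN3 had 0.913, 0.26 and 0.495 CPM in RasV12 and 39.2, 22.6 and 19.3 CPM in AKTmyr (log2 fold change -5.65, SE 0.74). CXCR4, the receptor of CXCL12, went the other way at 16.2 ± 7.31 and 0.639 ± 0.324 CPM (4.66, SE 0.47), as did ANGPTL4, which inhibits lipoprotein lipase, at 78.8 ± 8.21 and 5.21 ± 2.77 CPM. The ANGPTL4 call was lost without RasV12 replicate 1 or any 1 of the AKTmyr libraries. SLC2A1 and DDIT4 belong to this list as well as to those above.

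Other metabolic lists moved less. Of 33 sterol and fatty acid synthesis genes, 2 were higher and 10 were lower (median -0.24); 6 were lower without RasV12 replicate 2 and 6 without AKTmyr replicate 1. Malic enzyme ME1 averaged 29.5 ± 6.02 CPM in RasV12 and 64.6 ± 4.27 CPM in AKTmyr, and HMGCS1, of the mevalonate pathway, 88.0 ± 14.9 and 215 ± 119.9 CPM. Among 32 amino acid response genes, 2 (6.25%) were higher and 7 (21.9%, against 20.7% of all genes) were lower. Without RasV12 replicate 3 or AKTmyr replicate 2, 4 were lower. The subunits of the leucine transporter LAT1 fell together: SLC7A5 had 289, 383 and 316 CPM in RasV12 and 873, 2073 and 1015 CPM in AKTmyr (log2 fold change -2, SE 0.28), and SLC3A2 averaged 204 ± 14.5 and 467 ± 227 CPM (-1.20, SE 0.28). Of 17 iron genes, 1 was higher and 7 were lower. The ferroxidase hephaestin, HEPH, had 0.621, 0.189 and 0.36 CPM in RasV12 and 71.6, 51.7 and 34.7 CPM in AKTmyr (-7.14, SE 0.48). Ferritin chains FTH1 and FTL averaged 1082 ± 253 and 1247 ± 275 CPM in RasV12, and 2331 ± 801 and 2322 ± 391.7 CPM in AKTmyr, whereas the metalloreductase STEAP1 rose to 26.4 ± 2.92 CPM in RasV12, against 4.92 ± 2.35 CPM in AKTmyr.

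Of 27 NRF2 targets, 2 were higher and 8 were lower. The exceptions were the aldo-keto reductases AKR1C1, at 8.72 ± 2.37 CPM in RasV12 and 0.433 ± 0.36 CPM in AKTmyr, and AKR1C2, at 4.80 ± 0.967 and 0.206 ± 0.0793 CPM; these near-identical paralogs can exchange reads. Epoxide hydrolase EPHX1 averaged 19.2 ± 1.87 and 69.2 ± 7.77 CPM (log2 fold change -1.85, SE 0.14). Of 34 oxidative phosphorylation genes, 5 (14.7%, against 19.6% of all genes) were higher and none was lower (median 0.12). Those higher included the mitochondrial DNA packaging factor TFAM at 104 ± 6.06 and 42.5 ± 12.2 CPM. Without RasV12 replicate 1, RasV12 replicate 2 or AKTmyr replicate 1, 3 were higher. Of 34 lysosome and autophagy genes, 7 were higher and 6 were lower, close to the background. The protease CTSL averaged 582 ± 345 and 129 ± 75.5 CPM (2.18, SE 0.47), with 1.58 without RasV12 replicate 3 and 2.76 without AKTmyr replicate 3.

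Of 32 tested MYC targets and ribosome biogenesis genes, 21 (65.6%) were higher and 1 was lower, with a median log2 fold change of 0.74; the number higher lay between 17 and 23 when any 1 library was left out. MYC itself had 139, 150.0 and 108 CPM in RasV12 and 87.4, 97.2 and 73.6 CPM in AKTmyr (0.62, SE 0.17, edgeR adjusted p = 0.00906). The ribosome assembly factors RRS1 and RRP12 averaged 32.5 ± 5.92 and 62.4 ± 11.3 CPM in RasV12, and 8.44 ± 2.44 and 25.5 ± 8.81 CPM in AKTmyr. ODC1, the first enzyme of polyamine synthesis, averaged 427 ± 39.1 and 182 ± 20.1 CPM (1.23, SE 0.14), and the E-box factor TFAP4 13.9 ± 0.658 and 3.54 ± 1.48 CPM (1.99, SE 0.24). T53D4 held more MYC than either line (212 ± 21.9 CPM). Against T53D4, 18 members were lower in AKTmyr and 1 was higher (background 10.2% lower and 9.91% higher). In RasV12, 4 were higher and 2 were lower (background 10.8% higher and 13.6% lower).

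Oncofetal genes were few but large. HMGA1 had 4202, 3974 and 2373 CPM in RasV12 and 135, 203 and 416 CPM in AKTmyr (log2 fold change 3.81, SE 0.41, edgeR adjusted p = 1.3e-05), with 1979 ± 583 CPM in MekDD and 1058 ± 216 CPM in T53D4. PLAG1, a zinc finger factor of fetal tissue, averaged 7.78 ± 0.516 CPM in RasV12 and 1.10 ± 0.0936 CPM in AKTmyr (2.82, SE 0.23). Of 10 tested members of the list, 6 were higher and 2 were lower.

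Of 20 tested genes of the plasminogen system and serpins, 13 (65.0%) were higher and 2 were lower, with a median of 1.27. Thrombomodulin, THBD, which turns thrombin into an anticoagulant, had 172, 145 and 121 CPM in RasV12 and 8.38, 12.1 and 12.2 CPM in AKTmyr (log2 fold change 3.75, SE 0.24, edgeR adjusted p = 1.66e-07). The protease inhibitor TFPI2 had 389, 304 and 772 CPM in RasV12 and 22.8, 28.4 and 32.2 CPM in AKTmyr (4.14, SE 0.32). SERPINF1, pigment epithelium-derived factor, averaged 9.24 ± 2.57 and 2.16 ± 0.607 CPM (2.09, SE 0.27). SERPINB2 had 3.50, 4.28 and 74.2 CPM in RasV12 and 0.135, 0.22 and 0.458 CPM in AKTmyr (6.73, and 3.91 without RasV12 replicate 3). SERPING1, the C1 inhibitor, fell to 0.414 ± 0.179 CPM in RasV12, against 16.5 ± 17.4 CPM in AKTmyr (-5.33, and -3.98 without AKTmyr replicate 1).

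Metalloproteinases and ADAMTS genes split, with 7 of 25 tested higher and 10 lower. MMP10, a stromelysin beside MMP1 and MMP3, had 0.803, 0.615 and 2.16 CPM in RasV12 and no read in AKTmyr, at least 37-fold higher. ADAMTS2, which trims procollagen, had 0.548, 0.165 and 0.225 CPM in RasV12 and 30.2, 29.4 and 7.29 CPM in AKTmyr (log2 fold change -6.19, SE 0.64). That change was -5.80 without RasV12 replicate 2 and -6.85 without RasV12 replicate 1. Among 20 angiogenic and vascular factors, 9 were higher and 2 were lower (median 0.81). ROBO4 averaged 24.4 ± 9.42 CPM in RasV12 and 5.73 ± 1.59 CPM in AKTmyr, with summed endothelial markers of 19.3 to 38.6 CPM in RasV12 and 8.04 to 13.1 CPM in AKTmyr (8 measured, CDH5 without a read in AKTmyr). ROBO4 itself made up most of that sum, and EGFL7, the only other marker at 1 CPM or more, averaged 5.19 CPM in RasV12 and 4.95 CPM in AKTmyr. The guidance ligand SLIT3 averaged 52.6 ± 14.7 and 312 ± 171 CPM (-2.57, SE 0.40).

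Several cytokine genes differed, with a wide spread between the RasV12 libraries. Of 28 tested, 10 (35.7%) were higher and 4 were lower, or 1 lower without RasV12 replicate 1 or 2 and 2 without AKTmyr replicate 1. IL1B had 64.8, 109 and 535 CPM in RasV12 and 2.65, 0.749 and 1.08 CPM in AKTmyr (log2 fold change 7.30, SE 0.82, edgeR adjusted p = 1.96e-05). CSF2, which encodes GM-CSF, had 0.511, 1.04 and 10.2 CPM in RasV12 and 3 reads in AKTmyr. The neutrophil chemokine CXCL8 had 79.0, 95.5 and 1899 CPM in RasV12 and 19.8, 21.6 and 9.88 CPM in AKTmyr, and CXCL3 46.6, 28.1 and 152 CPM against 1.70, 2.05 and 0.917 CPM. RasV12 replicate 3 was the highest library for all 4, and without it the log2 fold changes were 5.86 for IL1B, 4.66 for CSF2, 2.35 for CXCL8 and 4.56 for CXCL3. All 4 remained called without it. Without AKTmyr replicate 1 that of IL1B was 8.04, and without AKTmyr replicate 2 that of CSF2 was 7.58.

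Other chemokines went the other way. CCL2, which attracts monocytes, had 0.0365, 0.0236 and 0.225 CPM in RasV12 and 38.8, 26.2 and 14.5 CPM in AKTmyr (log2 fold change -8.35, SE 1.14, -7.72 without RasV12 replicate 2 and -9.67 without RasV12 replicate 3), and 63.1 ± 37.4 CPM in T53D4. CXCL12 had no read in RasV12 and 3.86, 0.705 and 0.333 CPM in AKTmyr, at least 52.7-fold lower in RasV12, and CXCL14 had 2 reads in RasV12 and averaged 1.59 ± 0.594 CPM in AKTmyr. Of 13 chemokine genes tested, 6 were higher and 5 were lower. Markers of blood cells were low in both lines except for 1: CD68, a lysosomal protein that epithelial cells also make, was the only 1 of 6 measured blood markers at 1 CPM or more in RasV12 or AKTmyr (314 ± 30.3 and 133 ± 25.3 CPM), and PTPRC, the pan-leukocyte marker, averaged 0.0501 and 0.126 CPM.

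Of 26 tested genes of class I presentation, 1 was higher and 10 (38.5%) were lower, with a median of -0.47; 6 were lower without RasV12 replicate 1 and 6 without RasV12 replicate 2. HLA-B had 282, 252 and 532 CPM in RasV12 and 1603, 1185 and 793 CPM in AKTmyr (log2 fold change -1.75, SE 0.34), and HLA-F and the immunoproteasome subunit PSMB9 averaged 20.4 ± 12.7 and 9.61 ± 1.91 CPM in RasV12, and 50.5 ± 10.2 and 20.8 ± 6.98 CPM in AKTmyr. Class I genes are near-identical and can exchange reads. PDCD1LG2, the checkpoint ligand PD-L2, went the other way at 22.6 ± 4.14 and 10.2 ± 4.74 CPM (1.14, SE 0.33).

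Of 19 complement genes, 2 were higher and 10 (52.6%) were lower, with a median of -1.44. C4A averaged 0.235 ± 0.0522 CPM in RasV12 and 2.18 ± 0.769 CPM in AKTmyr, CFD, which encodes factor D, 0.135 ± 0.0872 and 1.09 ± 0.389 CPM, and MASP1 0.0444 ± 0.0576 and 1.31 ± 1.11 CPM. Interferon response genes split, with 6 of 31 higher and 9 lower. IFI44L averaged 28.2 ± 6.97 CPM in RasV12 and 2.99 ± 1.10 CPM in AKTmyr (log2 fold change 3.25, SE 0.33). IFI27 went the other way at 0.158 ± 0.0974 and 2.43 ± 0.737 CPM (-4.01, SE 0.53). So did OAS1 at 0.0866 ± 0.0498 and 1.47 ± 0.372 CPM (-3.91, SE 0.56). OAS1 stood at -3.67 without RasV12 replicate 3 and -4.53 without RasV12 replicate 2. Without RasV12 replicate 3, 3 interferon genes were higher.

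The extracellular matrix differed widely. Of 25 tested laminins, nidogens and heparan sulphate proteoglycans, 3 were higher in RasV12 and 14 (56.0%) were lower, with a median of -1.21. Laminin chain LAMA3 had 1.57, 1.32 and 1.94 CPM in RasV12 and 41.8, 46.1 and 34.6 CPM in AKTmyr (log2 fold change -4.68, SE 0.41, edgeR adjusted p = 2.56e-06). The glypican GPC4 (chromosome X, 133300103 to 133415489, minus strand) had 0.073, 0.851 and 1.26 CPM in RasV12 and 87.1, 99.4 and 124 CPM in AKTmyr (-7.16, SE 0.51). MekDD was as low as RasV12 for GPC4 (0.85 ± 0.469 CPM), and T53D4 stood at 55.9 ± 7.47 CPM, below every AKTmyr library; AKTmyr against T53D4 was not called (edgeR adjusted p = 0.103) but was with the vial number as a block (0.0267). Syndecans parted: SDC1 averaged 153 ± 21.9 CPM in RasV12 and 21.9 ± 5.85 CPM in AKTmyr (2.80, SE 0.26), and SDC2 31.2 ± 11.4 and 237 ± 88.4 CPM (-2.93, SE 0.42).

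Collagens were more often lower than higher. Of 33 tested collagen genes and their enzymes, 6 were higher and 12 (36.4%) were lower, with a median of -0.84. COL4A1 (chromosome 13, 110148963 to 110307157, minus strand) had 74.2, 53.6 and 84.7 CPM in RasV12 and 3311, 2181 and 992 CPM in AKTmyr (log2 fold change -4.93, SE 0.75). COL5A1 had 2.81, 2.13 and 1.62 CPM in RasV12 and 755, 226 and 154 CPM in AKTmyr (-7.43, SE 1.16, and -6.44 without AKTmyr replicate 1). In both genes the lowest AKTmyr library lay above the highest RasV12 library. COL1A1 had 9.45, 3.12 and 4.86 CPM in RasV12 and 335, 54.1 and 13.0 CPM in AKTmyr, and its call was lost without any 1 of the RasV12 libraries or without AKTmyr replicate 1 or 2. COL6A3 and COL13A1 went the other way, at 30.8 ± 12 and 21.2 ± 7.89 CPM in RasV12 and 1.09 ± 0.0479 and 0.591 ± 0.424 CPM in AKTmyr.

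Of 32 matricellular and glycoprotein genes, 2 were higher and 14 (43.8%) were lower, with a median of -0.92. The fibulins FBLN1 and FBLN2 averaged 1.87 ± 0.849 and 1.58 ± 1.15 CPM in RasV12, and 53 ± 36.7 and 22.2 ± 10.2 CPM in AKTmyr. CCN5 had no read in RasV12 and averaged 1.14 ± 0.51 CPM in AKTmyr, at least 34.0-fold lower in RasV12. Fibronectin, FN1, had 766, 680.2 and 1720.3 CPM in RasV12 and 1563, 1710.0 and 558 CPM in AKTmyr, so the groups overlapped and it was not called (edgeR adjusted p = 0.713). Fibroblast markers moved beside these genes: over 9 measured markers the summed level ran from 88.1 to 185 CPM in RasV12 and from 156 to 617 CPM in AKTmyr. That sum rested on COL1A1 and PDGFRB, which were called lower, and on FAP, which averaged 86.9 CPM in RasV12 and 53.6 CPM in AKTmyr; 2 of 5 tested markers were called lower and none higher, and DCN, LUM, COL3A1 and THY1 each averaged under 1 CPM in both lines. In bulk RNA, fewer cells of a type and less RNA per cell cannot be told apart, and the part of such cells in the matrix values was not tested.

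Among 16 integrin genes, 4 were higher and 4 were lower. ITGA2, a collagen receptor, averaged 87.7 ± 43.5 CPM in RasV12 and 8.37 ± 1.29 CPM in AKTmyr (log2 fold change 3.39, SE 0.34), and ITGB3 61.3 ± 35.4 and 8.52 ± 3.18 CPM (2.84, SE 0.60). ITGB4, which pairs with alpha 6 to bind laminin in hemidesmosomes, averaged 13.3 ± 2.73 and 133 ± 93.5 CPM (-3.33, SE 0.58, and -2.66 without AKTmyr replicate 1), and ITGA4 19.6 ± 4.27 and 103 ± 15.9 CPM (-2.39, SE 0.18).

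Neither epithelial nor mesenchymal genes were higher as a group in RasV12. Of 30 epithelial junction genes, 4 were higher and 13 (43.3%) were lower, with a median of -0.53. Desmocollin DSC2 averaged 10.1 ± 2.11 CPM in RasV12 and 57.1 ± 18.9 CPM in AKTmyr (log2 fold change -2.50, SE 0.22), and the polarity gene CRB2 2.07 ± 0.565 and 55.8 ± 42.4 CPM (-4.78, SE 0.79, and -4.08 without AKTmyr replicate 1). E-cadherin, CDH1, had 1 read in RasV12 and 2.19, 0.506 and 0.667 CPM in AKTmyr. The 4 higher junction genes became 1 to 3 when any 1 library was left out. Of 34 mesenchymal and contractile genes, 5 were higher and 15 (44.1%) were lower, with a median of -0.65, and 9 were lower without RasV12 replicate 2. Leiomodin LMOD1 averaged 2.70 ± 0.863 and 86.2 ± 29.6 CPM (-5.02, SE 0.53), the cadherin CDH6 0.148 ± 0.0825 and 10.1 ± 6.75 CPM (-5.97, SE 0.61, -5.30 without AKTmyr replicate 1 and -6.58 without RasV12 replicate 2), and transgelin TAGLN 14.1 ± 4.06 and 110.4 ± 81.5 CPM, a call lost without RasV12 replicate 2. NT5E, the ectonucleotidase CD73, rose to 2773 ± 329.6 CPM in RasV12, against 252 ± 176 CPM in AKTmyr (3.46, SE 0.48). Its log2 fold change was 3.14 without AKTmyr replicate 2 and 4.20 without AKTmyr replicate 3. Vimentin, VIM, averaged 10324 ± 3229 and 8401 ± 1589.9 CPM and was not called, and N-cadherin, CDH2, averaged 189 ± 28.2 and 351 ± 108 CPM, a call lost without RasV12 replicate 1, RasV12 replicate 2 or AKTmyr replicate 1.

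Keratins were lower in 7 of 15 tested and higher in 3; KRT16 had 0.073, 0.449 and 0.675 CPM in RasV12 and 24.3, 9.36 and 3.46 CPM in AKTmyr (log2 fold change -4.97, and -4.03 without AKTmyr replicate 1). The number lower was 4 without RasV12 replicate 1, RasV12 replicate 2 or AKTmyr replicate 1.

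Signals to neighbouring cells also differed by ligand. Of 26 TGF-beta pathway genes and targets, 5 were higher and 7 were lower. INHBA, the activin A subunit, had 76.9, 178 and 483 CPM in RasV12 and 24.9, 16.6 and 31.9 CPM in AKTmyr (log2 fold change 3.33, SE 0.49, and 2.39 without RasV12 replicate 3). TGFB2 had 109, 90.0 and 109 CPM in RasV12 and 863, 624 and 285 CPM in AKTmyr (-2.52, SE 0.42). The decoy receptor BAMBI averaged 16.2 ± 7.73 and 167 ± 36.4 CPM (-3.37, SE 0.35). Among 27 BMP pathway and ID genes, 3 were higher and 7 were lower, or 3 lower without RasV12 replicate 2 and 4 without RasV12 replicate 1; ID1, a BMP target, averaged 217 ± 38.9 CPM in RasV12 and 34.9 ± 7.08 CPM in AKTmyr (2.64, SE 0.36), and ID4 20.5 ± 14.5 and 110.3 ± 28.6 CPM.

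In the WNT pathway, 6 of 29 tested genes were higher and 11 were lower. The ligand WNT2B had 1.17, 1.11 and 2.57 CPM in RasV12 and 248, 104 and 40.8 CPM in AKTmyr (log2 fold change -6.39, SE 0.86, and -5.55 without AKTmyr replicate 1). The secreted antagonists parted: SFRP1 averaged 584 ± 166 CPM in RasV12 and 24.8 ± 9.01 CPM in AKTmyr (4.56, SE 0.37), and SFRP4 0.0745 ± 0.0585 and 12 ± 10.0 CPM (-7.08, SE 1.26, -6.16 without AKTmyr replicate 1 and -8.09 without RasV12 replicate 2). Of 36 guidance genes (semaphorins, plexins, Eph receptors and ephrins), 12 were higher and 12 were lower; PLXNA4 averaged 12.1 ± 6.83 and 0.658 ± 0.14 CPM, and EPHB1 13.6 ± 5.91 and 0.854 ± 0.294 CPM. Among 29 YAP and TEAD targets, 6 were higher and 11 were lower, with the crosslinking enzyme TGM2 at 602 ± 276 CPM in RasV12 and 62.5 ± 7.61 CPM in AKTmyr (3.27, SE 0.36). Of 12 Notch genes, 1 was higher and 4 were lower, and NOTCH2 averaged 256 ± 41.4 and 451 ± 80.3 CPM (-0.82, SE 0.15).

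The title of the series concerns mitosis, and the counts of mitotic genes called changed most when AKTmyr replicate 3 was left out. Of 43 tested kinetochore and spindle checkpoint genes, 7 (16.3%, against 19.6% of all genes) were higher in RasV12 and none was lower, with a median log2 fold change of 0.44. BUB3, a checkpoint protein at kinetochores (chromosome 10, 123154402 to 123170467, plus strand), had 500.3, 379.9 and 378 CPM in RasV12 and 169, 156 and 203 CPM in AKTmyr (1.25, SE 0.19, edgeR adjusted p = 0.000166). CDC20, the activator of the anaphase-promoting complex, had 197, 168 and 128 CPM in RasV12 and 74.0, 76.8 and 115 CPM in AKTmyr (0.89, SE 0.22). The checkpoint kinases and scaffold were not called: BUB1 averaged 147 ± 34.7 CPM in RasV12 and 122 ± 28.4 CPM in AKTmyr, BUB1B 92.2 ± 10.1 and 64.4 ± 30.4 CPM, TTK 77.9 ± 12.5 and 58.9 ± 20.5 CPM, and KNL1 54.5 ± 6.06 and 46.4 ± 20.6 CPM. For BUB1B, TTK and KNL1, AKTmyr replicate 3 lay at 98.9, 82.5 and 70.1 CPM, within or above the range of the RasV12 libraries, while the other AKTmyr libraries lay below them.

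Among mitotic kinases and spindle genes, 5 of 48 (10.4%) were higher and 2 were lower. AURKA had 188, 172 and 115 CPM in RasV12 and 62.8, 65.1 and 105 CPM in AKTmyr (log2 fold change 1.03, SE 0.27), and AURKB averaged 61.1 ± 11.6 and 42.4 ± 7.77 CPM with an edgeR adjusted p of 0.0489, a call lost without RasV12 replicate 1 or 2 or AKTmyr replicate 1 or 2. MYBL2, a driver of late cell cycle genes, averaged 74.2 ± 12 CPM in RasV12 and 148 ± 42.5 CPM in AKTmyr (-1, SE 0.21). Of 41 DNA replication genes, 4 (9.76%) were higher and none was lower, with a median of 0.45; the licensing factor CDT1 averaged 69.2 ± 7.12 and 31.3 ± 7.75 CPM (1.14, SE 0.18). The mitotic median was 0.28. The log2 fold change was above 0 for 39 of 43 kinetochore, 41 of 48 mitotic and 37 of 41 replication genes. Over all tested genes it was above 0 for 6895 of 13599. With the vial number as a block, 16 kinetochore, 12 mitotic and 18 replication genes were called higher, beside 3578 of all tested genes. The counts without the block moved with the library left out, most of all with AKTmyr replicate 3. Without it, 21 kinetochore, 19 mitotic and 27 replication genes were higher in RasV12, beside 2758 of all tested genes. Without any other 1 of the 6 libraries the counts were as low as 3, 2 and 2, beside 2023 to 2460 of all tested genes.

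**Figure D4:**
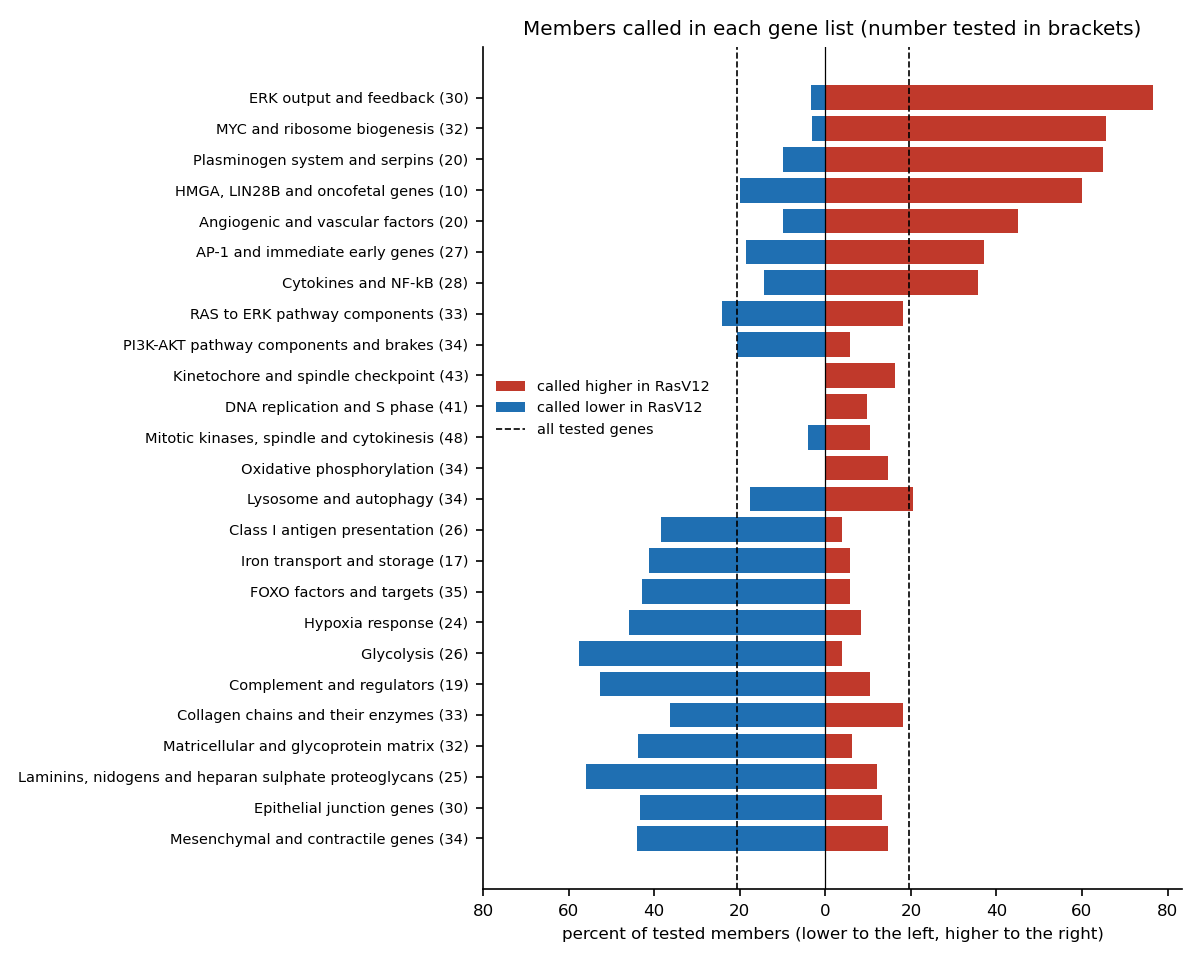
Percent of tested members of 25 gene lists called higher (right) and lower (left) in RasV12 against AKTmyr, with dashed lines at the 19.6% and 20.7% of all tested genes. ERK output, MYC and ribosome biogenesis, and plasminogen lists reach past 60% to the right; glycolysis, laminin and complement lists reach past 50% to the left; kinetochore, replication and mitotic lists stay inside the dashed lines on both sides.

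Cyclin, CDK and inhibitor genes were split, with 8 of 30 higher (7 without construct genes) and 6 lower. CDK6 averaged 24.1 ± 4.18 CPM in RasV12 and 93.1 ± 25 CPM in AKTmyr (log2 fold change -1.95, SE 0.31), the repressor E2F7 245 ± 37.5 and 85.8 ± 22.6 CPM (1.52, SE 0.29), and CDKN1A, the inhibitor p21, 491 ± 104 and 1016 ± 388 CPM (-1.05, SE 0.28), a call lost without AKTmyr replicate 1. CDKN2A averaged 8.61 ± 2.38 and 17.9 ± 4.26 CPM (-1.05, SE 0.26). The number higher was 5 without RasV12 replicate 1, AKTmyr replicate 1 or AKTmyr replicate 2. Among 21 BCL2 family genes, 6 were higher and 5 were lower: anti-apoptotic MCL1 had 885, 556 and 542 CPM in RasV12 and 247, 202 and 191 CPM in AKTmyr (1.63, SE 0.21), PMAIP1, the pro-apoptotic NOXA, averaged 38.7 ± 10.8 and 12.8 ± 2.35 CPM (1.6, SE 0.31), and pro-apoptotic HRK 0.98 ± 0.444 and 9.22 ± 3.34 CPM (-3.19, SE 0.56).

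Identity factors of the eye were not uniformly affected. Of 28 tested pigment epithelium and eye field genes, 4 were higher and 7 were lower, with a median of -0.27. LHX2, an eye field homeobox factor, had 37.4, 26.4 and 21.0 CPM in RasV12 and 1.30, 1.26 and 1.83 CPM in AKTmyr (log2 fold change 4.29, SE 0.24, edgeR adjusted p = 1.13e-07); T53D4 held 27.5 ± 5.23 CPM, so AKTmyr was the line below it. MITF, the master factor of pigment cells, had 25.1, 31.2 and 26.3 CPM in RasV12 and 80.0, 78.1 and 114 CPM in AKTmyr (-1.72, SE 0.26); T53D4 held 92.5 ± 22.9 CPM, so here RasV12 was the line below it. OTX2 averaged 69.3 ± 3.14 and 94.2 ± 13.5 CPM and was not called (edgeR adjusted p = 0.078), and the melanosome enzyme TYRP1 averaged 0.927 ± 0.308 and 5.52 ± 3.51 CPM (-2.54, SE 0.57). Summed melanocyte markers (6 measured) ran from 3.98 to 4.55 CPM in RasV12 and from 6.24 to 13.7 CPM in AKTmyr; their part was not tested. Of 30 lineage factors of other kinds, 7 were higher and 4 were lower (2 without RasV12 replicate 1 or 3); FOXD1 averaged 239 ± 57.6 CPM in RasV12 and 70.4 ± 7.41 CPM in AKTmyr (1.76, SE 0.30), and TBX3 11.8 ± 2.31 and 1.88 ± 0.293 CPM (2.64, SE 0.33). SNAP25, a synaptic vesicle fusion protein, had 6.39, 7.68 and 11.1 CPM in RasV12 and 0.216, 0.044 and 0.208 CPM in AKTmyr, while the synaptotagmin SYT1 averaged 7.28 ± 0.0889 and 29.3 ± 3.07 CPM; over 5 measured photoreceptor and neuron markers the sum ran from 14.4 to 19.3 CPM in RasV12 and from 27.0 to 33.0 CPM in AKTmyr.

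AP-1 and immediate early genes included 10 of 27 (37%) higher and 5 lower, with a median of 0.41. FOSB had 8.50, 7.54 and 11.3 CPM in RasV12 and 1.11, 0.705 and 0.917 CPM in AKTmyr (log2 fold change 3.32, SE 0.35), and MAFF averaged 68.2 ± 14.4 and 8.06 ± 0.742 CPM (3.08, SE 0.24). Because AP-1, ETS, FOXO and MYC factors are outputs of these pathways, promoters were searched for 4 short motifs on both strands in RefSeq windows of GRCh38.p14, from 250 bases before each gene's start to 50 after it, which matched 10898 of the 13599 tested genes. The AP-1 letters TGACTCA were in 8.27% of the promoters of genes higher by 2-fold or more (54 of 653), in 6.57% of those of genes lower by as much (76 of 1156), and in 4.94% of all tested promoters. The ETS letters CCGGAAGT were in 3.22% and 1.9% of these promoters, and in 9.47% of all tested. E-boxes, CACGTG, were in 11.3% and 8.65%, and in 12.3% of all tested, and the FOXO core TGTTTAC was in 5.05% and 4.50%, and in 3.56% of all tested. Over all called genes, at any size of change, ETS letters were in 11.4% of promoters of genes higher in RasV12 and 4.85% of those lower, E-boxes in 13.2% and 10.4%, AP-1 letters in 5.39% and 6.01%, and the FOXO core in 3.65% and 4.08%. The shares thus depended on the size of change taken; these shares were not tested.

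Stretches of 30 bases on either side of a match, or as far as the window goes, are shown for some of the genes named here, to show the letters before genes of either direction, all upstream of the start and all written 5′ to 3′ on the gene's strand, with every match in capitals (TGAGTCA and GTAAACA being the AP-1 and FOXO letters on the other strand). The AP-1 letters lie before CXCL8 (chr4:73740402-73740468, plus strand), IL11 (chr19:55370523-55370589, minus strand), TNFAIP6 (chr2:151357433-151357499, plus strand), TNFSF15 (chr9:114792614-114792680, minus strand) and TMEM156 (chr4:39032454-39032520, minus strand), which rose, and before LAMA3 (chr18:23872865-23872931, plus strand), CLEC19A (chr16:19285506-19285572, plus strand) and CXCL14 (chr5:135579047-135579113, minus strand), which fell; they are also before CD68, which rose, and before FAM107B, SLC3A2, ME1 and EGFR, which fell.
CXCL8: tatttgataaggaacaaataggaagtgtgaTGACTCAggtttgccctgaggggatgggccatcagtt
IL11: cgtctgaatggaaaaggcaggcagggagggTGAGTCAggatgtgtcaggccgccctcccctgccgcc
TNFAIP6: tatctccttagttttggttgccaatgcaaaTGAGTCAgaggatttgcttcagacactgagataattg
TNFSF15: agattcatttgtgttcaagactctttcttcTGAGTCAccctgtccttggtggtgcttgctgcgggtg
TMEM156: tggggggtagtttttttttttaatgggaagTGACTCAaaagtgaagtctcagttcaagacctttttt
LAMA3: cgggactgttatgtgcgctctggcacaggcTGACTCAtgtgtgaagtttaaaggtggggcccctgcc
CLEC19A: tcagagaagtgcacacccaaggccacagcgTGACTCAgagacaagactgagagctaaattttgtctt
CXCL14: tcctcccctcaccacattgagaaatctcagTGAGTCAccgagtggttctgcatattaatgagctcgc
E-boxes lie before the glycolysis genes PFKFB3 (chr10:6202794-6202859, plus strand), HK2 (chr2:74834946-74835011, plus strand) and ALDOC (chr17:28577100-28577145, minus strand), all lower in RasV12, and the FOXO core lies before TXNIP (chr1:145996667-145996733, minus strand) and IGF1 (chr12:102481958-102481997, minus strand), also lower, and before PAPPA (chr9:116153624-116153690, plus strand), which is higher. E-boxes are also before ODC1 and MAFF, which are higher, and before RASSF2, TGFB2, PPP1R3C, SLC7A5 and MYBL2, which are lower. TERT and CDK4 have E-boxes too, but their values mix in reads of constructs, so they say nothing of these promoters. The FOXO core is also before CTSL, which is higher, and before TYRP1 and DSC2, which are lower.
PFKFB3: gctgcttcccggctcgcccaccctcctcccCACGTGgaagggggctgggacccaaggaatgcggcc
HK2: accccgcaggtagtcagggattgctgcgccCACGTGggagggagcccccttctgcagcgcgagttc
ALDOC: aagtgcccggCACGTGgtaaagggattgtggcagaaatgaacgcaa
TXNIP: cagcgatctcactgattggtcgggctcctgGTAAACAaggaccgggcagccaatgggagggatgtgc
IGF1: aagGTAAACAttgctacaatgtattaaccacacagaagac
PAPPA: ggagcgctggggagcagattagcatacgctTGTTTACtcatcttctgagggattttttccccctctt
A match is a stretch of letters, not a measured binding site. The capitals show that the same AP-1 letters occur before genes that moved in opposite directions, CXCL8 and LAMA3 among them. IL11 averaged 4.90 ± 0.85 CPM in RasV12 and 0.218 ± 0.236 CPM in AKTmyr (log2 fold change 4.46, SE 1.20). That change was 3.89 without AKTmyr replicate 2 and 5.97 without AKTmyr replicate 1. TNFAIP6 averaged 4.07 ± 3.54 and 0.0802 ± 0.0566 CPM (5.65, SE 0.78, 4.66 without RasV12 replicate 3 and 6.36 without AKTmyr replicate 1).

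Differences were unevenly spread over chromosomes. Over 10607 tested genes averaging 5 CPM or more and having a position in the deposited annotation, 21.2% were higher in RasV12, 19.4% were lower, and the median log2 fold change was 0.04. On the short arm of chromosome 10, 5 of 99 genes were higher and 43 were lower (median -0.38), and on its long arm 128 of 330 were higher and 46 were lower (median 0.29). Chromosome 20 had 111 of 289 genes higher and 45 lower (median 0.24). Relative to the mean of the AKTmyr libraries, the RasV12 libraries lay at -0.19, -0.20 and -0.53 on the short arm of chromosome 10, at 0.23, 0.29 and 0.37 on its long arm, and at 0.25, 0.33 and 0.20 on chromosome 20, as medians of log2(CPM + 0.5) over genes. AKTmyr libraries lay between -0.08 and 0.07 on all 3. Against T53D4, the RasV12 medians were -0.32, 0.31 and 0.25 and the AKTmyr medians 0.01, 0.02 and -0.00, so RasV12 was the line that departed from T53D4 on these arms. Single genes went either way. The genes given here are called genes named by rule and described above, and those named after their values were seen were not placed. On the long arm of chromosome 10, BUB3, COL13A1, RRP12 and TFAM rose and DDIT4, PPP1R3C and CXCL12 fell. On its short arm, PFKFB3, ITIH5, FAM107B and BAMBI fell and FZD8, AKR1C1 and AKR1C2 rose. On chromosome 20, BMP2, THBD, PI3, TGM2, ID1, AURKA and SNAP25 rose and RASSF2, MYBL2 and CCN5 fell. DNA copy number was not measured, and its part in these values was not tested.

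**Figure D5:**
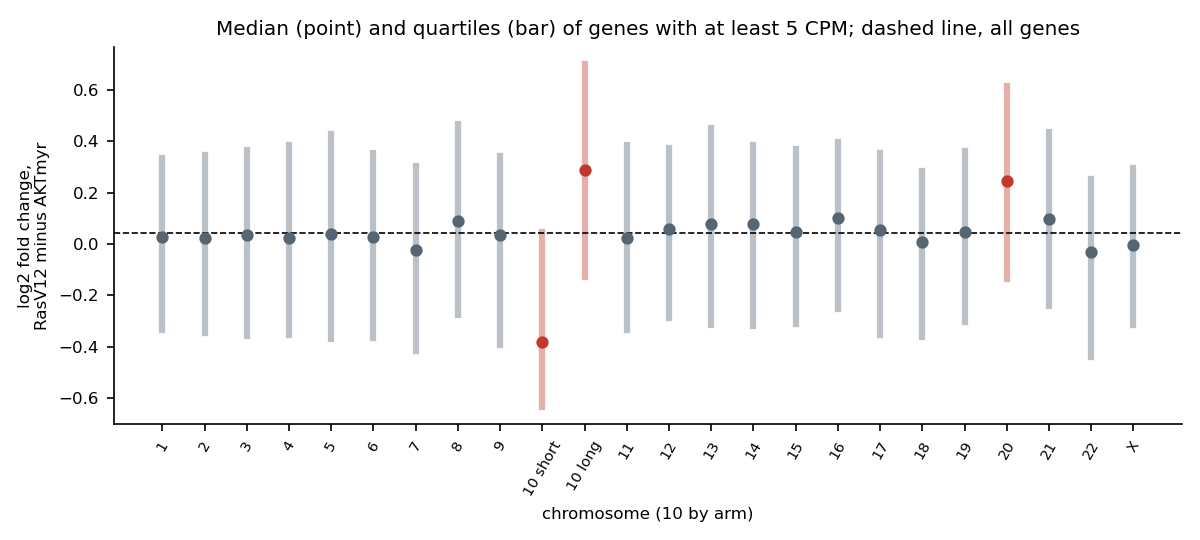
Median (point) and quartiles (bar) of the log2 fold change, RasV12 minus AKTmyr, by chromosome, with chromosome 10 split into its arms and a dashed line at the 0.04 of all genes with at least 5 CPM. The short arm of chromosome 10 lies at -0.38, its long arm at 0.29 and chromosome 20 at 0.24, outside the range of the other chromosomes.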

How the data were processed

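The deposited table holds whole-number read counts for 15510 genes and 7 construct sequences in 15 libraries of directional poly(A) RNA, per the labels' protocols; the smallest row total is 10. Per the submitters' processing notes, the authors used hg38 and DESeq2 1.28.1, with HISAT2 2.1.0, fastp 0.20.0, SAMtools 1.9, featureCounts 1.6.4 and deepTools 3.2.0, in an order and roles not given; strand use in counting is not given in the sources used here.

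Counts were analysed with edgeR 4.0.16 (R 4.3.3): TMM factors, filterByExpr with a minimum count of 10, and one quasi-likelihood fit with a term per line over all 15 libraries, which share one estimate of spread. Construct rows were left out of the tests. Standard errors are the absolute log2 fold change over the square root of F; p-values were Benjamini-Hochberg adjusted over 13599 genes and called under 0.05. Alternatives were other scaling factors, filters, each library left out, the 2 lines alone and DESeq2 1.42.0. Intervals and floors pool the reads of each line and cover counting error only.

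Named genes were the construct genes; the 12 called genes each way with the largest change, no overlap and at least 5 CPM; the 8 each way with the smallest adjusted p and at least 20 CPM; up to 4 called members of each of 52 lists; and 37 chosen genes. The text describes only part of these genes. Members and lists were chosen with earlier results of these data known. Same-numbered libraries deviated together between RasV12 and T53D4 (r = 0.358, 0.406 and 0.164) and between AKTmyr and T53D4 (0.521, 0.36 and 0.649), where the numbers were read as pairs from the data.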

Additional observations from a re-analysis of the deposited data

Results flagged for a closer look

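Construct rows, which entered no test of genes, exceeded every ARPE19 library and are given as mean CPM. The CCND1 row held 2349.65 in RasV12 and 857.731 in AKTmyr, the CDK4r24c row 2380.5 in RasV12 and 1005.54 in AKTmyr, the TERT row 1243.74 in RasV12 and 632.62 in AKTmyr, and the murine_p53DD row 110.759 in RasV12 and 58.4091 in AKTmyr. The HRASV12 row held 310.44 in RasV12, and the MYR_FLAG_AKT row 117.659 in RasV12 and 839.607 in AKTmyr. The MYR_FLAG_AKT value of RasV12 is close to that of T53D4, 117 CPM.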

How the results depend on the processing

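The counts of RasV12 against AKTmyr stayed within 1.5 times the reported 2669 higher and 2821 lower under every alternative run, from 1966 and 2312 with the 2 lines alone to 3578 and 3585 with the replicate block; without 1 library they ran from 2023 to 2758 and from 2225 to 2919. Same-numbered RasV12 and AKTmyr libraries correlated at 0.266, 0.45 and 0.0163. The last is below the 0.1 needed, so the numbers were not read as pairs between these lines. Still, 3 of 3 RasV12 and 2 of 3 AKTmyr libraries correlated best with their own number. Each line was also read as paired with T53D4 by these numbers. Same-numbered libraries correlated at 0.51, 0.54 and 0.434 between RasV12 and MekDD, and at 0.778, 0.394 and 0.762 between AKTmyr and ARPE19. The main fit had no block in any comparison, so a spread shared by number was left in it. Against T53D4, the replicate block gave 2259 genes higher in RasV12, and 2304 higher and 2434 lower in AKTmyr; AKTmyr and T53D4 alone gave 788 higher and 661 lower. Without 1 library, AKTmyr against T53D4 ran from 812 to 1359 higher and from 793 to 1310 lower. Of 226 named genes called, 197 kept direction and call in every alternative that tested them (the filter at 5 CPM dropped some), 29 lost the call without some library, and 0 reversed. The block also gave 16 of 43 kinetochore, 12 of 48 mitotic and 18 of 41 replication genes higher in RasV12. Over all tested genes it gave 3578 of 13599 higher. In lists, counts of 3 or fewer often changed when 1 library was left out. The causes were not tested.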
